A study of Mus musculus with 6 samples.

Results

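The laminin, basement membrane and integrin genes of the embryonic mouse pancreas are described here, as 35 listed genes out of 37224 in the table. The list was given as gene symbols, and each symbol matched a single Ensembl identifier. It holds 9 laminin chains, 4 genes for linkers and proteoglycans of the basement membrane, 11 integrin alpha subunits, 6 integrin beta subunits, 4 other integrin ligands and dystroglycan. RNA was measured by sequencing in whole pancreata of wild-type (wt) C57/Bl6J embryos at 13.5 and 15.5 days post coitum (dpc), with 3 samples per stage. Each sample was a pool of up to 3 embryos, and no transgene or agent was involved. These stages lie around the secondary transition, when acinar and endocrine cells arise in number from the branching epithelium.

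Basement membranes are thin sheets of matrix under epithelia and around vessels, nerves and muscle. Laminins, each a trimer of an alpha, a beta and a gamma chain, and collagen IV form its networks, which nidogens and the proteoglycan perlecan join. Cells hold to these sheets through integrins, heterodimers of an alpha and a beta subunit, and through dystroglycan, and in the developing pancreas a basement membrane separates the branching epithelium from the mesenchyme.

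Total counts were 10546028 to 16389237 per sample, and the listed genes took 0.261% to 0.469% of them. All 35 genes were among the 15578 tested, with single counts from 6 to 9152. At 15.5 dpc, the samples kept nearly the same order over the listed genes. Replicate 2 had the highest value of the 15.5 dpc samples for 33 of the 35 genes and replicate 1 the lowest for 30. The median fold of replicate 2 over replicate 1 was 1.77 for the listed genes and 1.005 for all genes tested. Values below are normalised counts, which are counts scaled to the same effective library size, unless given per kb of exon.

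Between 13.5 and 15.5 dpc, 12 of the 35 genes were called by edgeR's quasi-likelihood test at an adjusted p at or below 0.05. These are 34.3% of the listed genes, against 22.3% of all genes tested. The 4 genes that rose were *Itgb4*, *Vtn*, *Itga7* and *Itga6*, and the share of genes called higher, 11.4%, was near the 11.6% of all genes. The 8 that fell were *Lama1*, *Itga8*, *Itga11*, *Itga9*, *Npnt*, *Itgb5*, *Itga3* and *Itga5*, and the share called lower was 22.9%, against 10.7% of all genes. The paper's thresholds ask for an adjusted p of at most 0.1, a fold below 0.6 or above 1.6 and a mean above 100 normalised counts at 13.5 or 15.5 dpc, and 9 genes met them, 4 higher and 5 lower. Of all protein-coding genes tested, 10.4% met these thresholds, 6.47% higher and 3.9% lower. For 16 of the listed genes, 5 higher and 11 lower, every sample of a stage lay on the same side of every sample of the other, against 46.4% of all genes, 22.8% higher and 23.6% lower. The median log2 fold change of the listed genes was -0.21, against -0.01 for all genes tested.

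**Figure D1:**
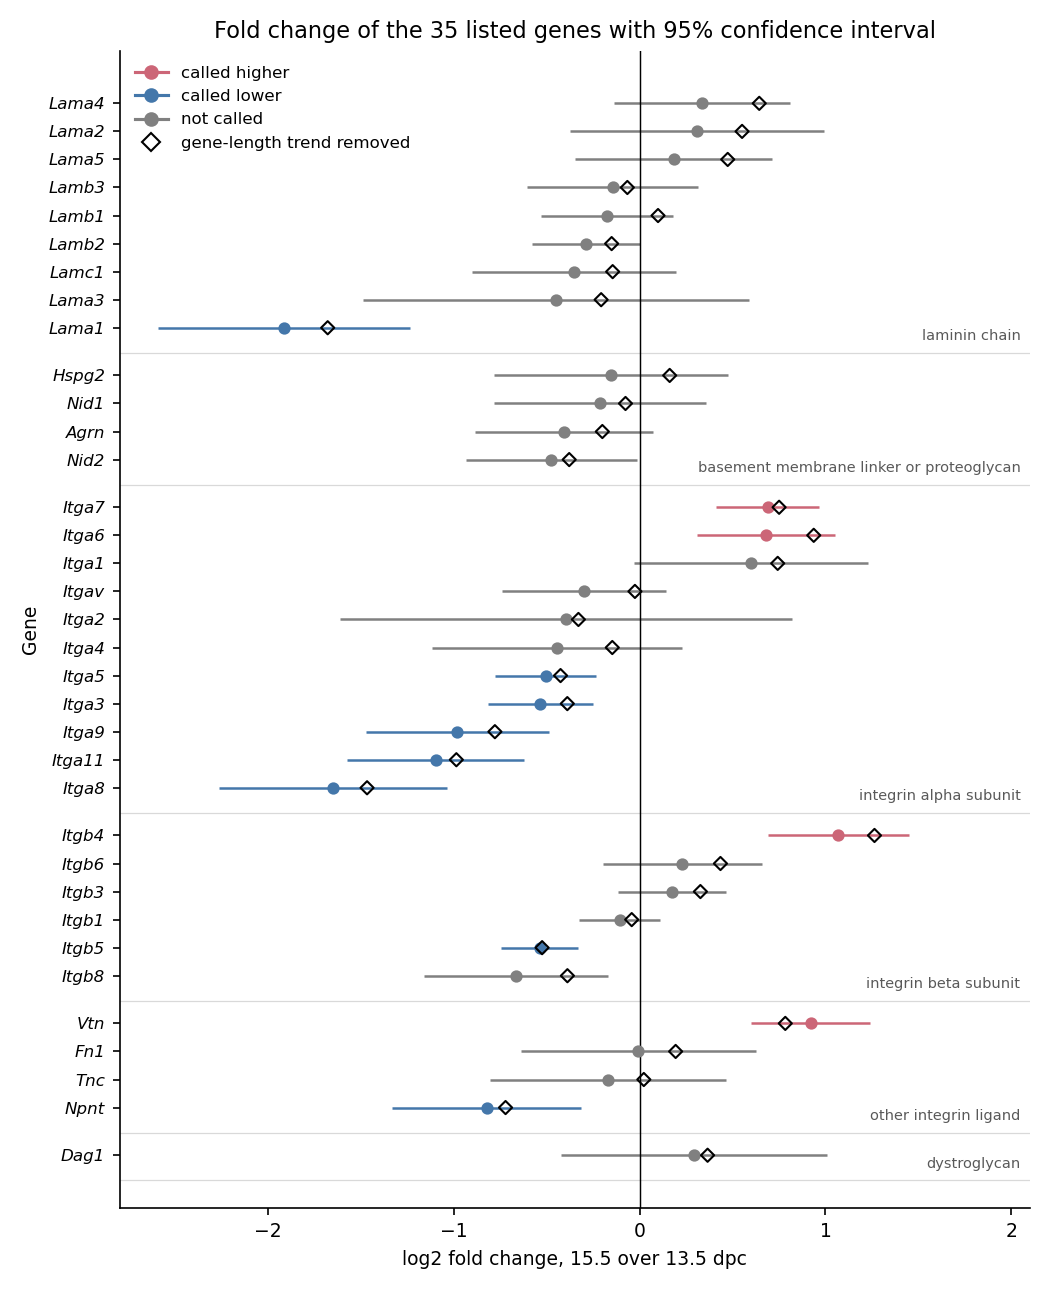
Log2 fold change of each listed gene at 15.5 over 13.5 dpc (x axis) with its 95% confidence interval, grouped by role (y axis). Filled points are coloured by call, open diamonds are the values after removal of the gene-length trend, and the calls lie from -1.91 for *Lama1* to 1.07 for *Itgb4*.

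Of the 9 laminin chains, *Lama1* fell and the other 8 were not called. *Lama1* encodes the alpha1 chain of the laminin of early embryonic basement membranes, and lies at chr17:67697265-67822645 (mm10, plus strand). It measured 576, 524 and 627 normalised counts at 13.5 dpc and 94.1, 230.1 and 128 at 15.5 dpc. Every 15.5 dpc sample lay below every 13.5 dpc sample, with the widest spread among the 15.5 dpc samples. It was 3.77-fold lower at 15.5 dpc, with a log2 fold change of -1.91 ± 0.29 (SE) and an adjusted p of 0.00477 (edgeR). Of the 35 genes it had the lowest log2 fold change, and its call held in all 16 alternative settings, with log2 fold changes from -2.35 to -1.66.

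The alpha chains of laminins in epithelial, vascular and muscle basement membranes were not called. *Lama4*, the chain of vascular and mesenchymal laminins, measured 907, 1020.3 and 1200.3 at 13.5 dpc and 981, 1683 and 1281 at 15.5 dpc. *Lama5*, the widespread chain of epithelial and vascular laminins, measured 1503, 1621 and 2092 at 13.5 dpc and 1506, 2659 and 1752 at 15.5 dpc. The stages overlapped for both genes, with adjusted p values of 0.252 for *Lama4* and 0.572 for *Lama5* (edgeR). *Lama2*, the main alpha chain of muscle and nerve, lay between 57.4 and 124 normalised counts. *Lama3*, a chain of laminins that anchor epithelia, lay between 8.3 and 26.6 normalised counts. Both had low counts, and their confidence intervals held 0.

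The share of each alpha chain within a sample does not depend on the scaling between samples. Per kb of exon, *Lama1* was 21.9%, 18.99% and 18.3% of the summed alpha chains at 13.5 dpc and 4.28%, 5.87% and 4.81% at 15.5 dpc. *Lama4* was 28.0% ± 1.0 (SD, n = 3) at 13.5 dpc and 35.6% ± 2.0 at 15.5 dpc, and its samples did not overlap. *Lama5* had the highest share at both stages, with 49.4% ± 1.7 at 13.5 dpc and 56.3% ± 1.3 at 15.5 dpc, again without overlap. Because shares sum to 100%, the higher shares of *Lama4* and *Lama5* include the lower share of *Lama1*.

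**Figure D2:**
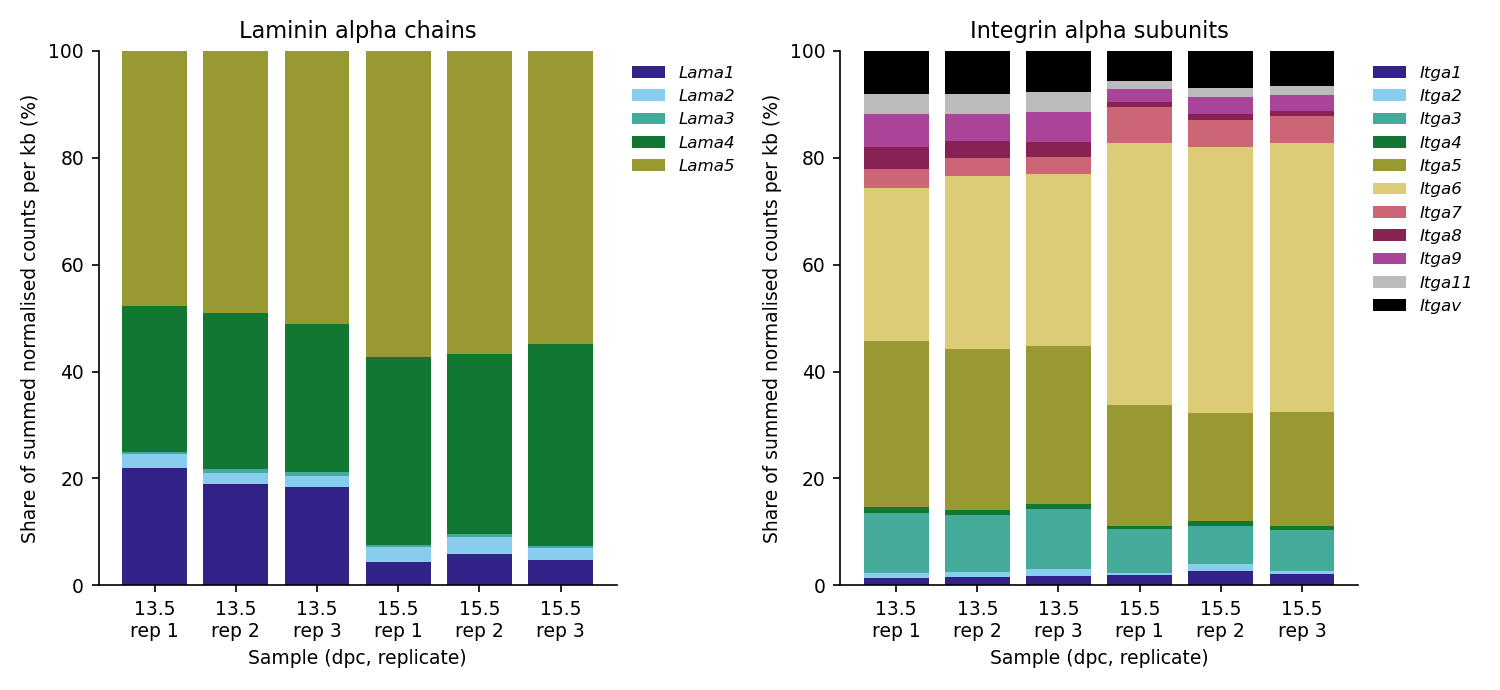
Share of each gene in the summed normalised counts per kb of its family (y axis, %), for laminin alpha chains (left) and integrin alpha subunits (right), in each of the 6 samples (x axis). *Lama1* lies between 18.3% and 21.9% at 13.5 dpc and between 4.28% and 5.87% at 15.5 dpc, and *Itga6* lies between 49.1% and 50.3% at 15.5 dpc.

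Every laminin trimer needs a beta and a gamma chain, and none of the 4 listed here was called. *Lamb1*, the beta chain of embryonic laminins, had 540.0 ± 36.3 normalised counts per kb (SD, n = 3) at 13.5 dpc and 478 ± 97.5 at 15.5 dpc. *Lamc1*, the widespread gamma chain, had 596 ± 57.8 and 466 ± 162. *Lamb2*, the beta chain of kidney, muscle and vascular laminins, had 244 ± 10.6 and 199 ± 30. Per kb, *Lamc1* lay above *Lamb1* within each 13.5 dpc sample, and at 15.5 dpc in replicate 2 only. Both lay above *Lamb2* in the means. *Lamb3*, the partner of *Lama3*, had 11.1 ± 1.3 and 10 ± 1.9. In shares of the summed beta chains, *Lamb1* was 67.9% at 13.5 dpc and 69.4% at 15.5 dpc, and all 3 beta chains overlapped between the stages. Without 15.5 dpc replicate 2, *Lamb1* (-0.33), *Lamb2* (-0.39) and *Lamc1* (-0.64) were called lower on the log2 scale. *Lama4* was called higher, at 0.51, without 15.5 dpc replicate 1.

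The 4 linkers and proteoglycans were not called, and all 4 had negative log2 fold changes. *Nid2* measured 3142, 3182 and 3456 normalised counts at 13.5 dpc and 1701, 3057 and 2274 at 15.5 dpc, a log2 fold change of -0.48 (95% confidence interval -0.94 to -0.01, adjusted p = 0.120 by edgeR). Nidogens bridge the laminin and collagen IV networks, and *Nid2* was the only gene of the 4 whose stages did not overlap. *Nid1* had a log2 fold change of -0.21, *Agrn* of -0.41 and *Hspg2* of -0.15. *Agrn* encodes agrin, which links laminins to dystroglycan, and *Hspg2* encodes perlecan, the longest listed gene with 14307 bases of exon. For these 3 genes replicate 2 at 15.5 dpc lay within or above the 13.5 dpc range, and replicates 1 and 3 lay below it. Without replicate 2, all 4 were called lower, with log2 fold changes of -0.52 for *Nid1*, -0.70 for *Nid2*, -0.51 for *Hspg2* and -0.65 for *Agrn*.

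Of the 11 integrin alpha subunits, 2 rose and 5 fell. The alpha subunit sets what an integrin binds, and the subunits are given here by ligand. Among the laminin receptors, *Itga6* and *Itga7* rose and *Itga3* fell. *Itga6*, which pairs with *Itgb1* or *Itgb4*, measured 2459, 2804 and 3065 normalised counts at 13.5 dpc and 3629, 5363 and 4368 at 15.5 dpc. The 15.5 dpc samples were all above the highest 13.5 dpc sample, and the gene was 1.604-fold higher (log2 0.68 ± 0.16 SE, adjusted p = 0.0226 by edgeR). *Itga7*, the laminin receptor best known from muscle, measured 138, 131 and 135 at 13.5 dpc and 217, 235 and 198 at 15.5 dpc. It was 1.61-fold higher (log2 0.69 ± 0.12 SE, adjusted p = 0.00749). *Itga3*, an epithelial laminin receptor, measured 613, 588 and 680.2 at 13.5 dpc and 383, 486 and 428 at 15.5 dpc. It was 1.45-fold lower (log2 -0.53 ± 0.12 SE, adjusted p = 0.0200), so the laminin-binding subunits moved in both directions. In 5.31% of its 50-base windows, *Itga6* shares sequence with other transcripts.

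Of the RGD-binding subunits, which recognise a short peptide in fibronectin, vitronectin or nephronectin, *Itga8* and *Itga5* fell and *Itgav* was not called. *Itga8*, the receptor subunit for nephronectin in kidney development, lies at chr2:12106632-12301920 on the minus strand (mm10). It measured 281, 219 and 223 normalised counts at 13.5 dpc and 56.7, 110.4 and 59.2 at 15.5 dpc. Each 15.5 dpc sample lay below each 13.5 dpc sample. It was 3.14-fold lower (log2 -1.65 ± 0.26 SE, adjusted p = 0.00568 by edgeR), and its call held in all 16 alternative settings. A transcript on the opposite strand, *E030013I19Rik*, overlaps 5.07% of its exon length and had 0 to 20 counts, against 41 to 311 for *Itga8*. *Itga5*, the main fibronectin receptor subunit, measured 1303, 1265 and 1375 at 13.5 dpc and 814, 1060.4 and 898 at 15.5 dpc. It was 1.42-fold lower (adjusted p = 0.0219) without overlap of the stages. *Itgav*, the partner of several beta subunits, measured 837, 845 and 868 at 13.5 dpc and 499.6, 881 and 685 at 15.5 dpc, with 15.5 dpc replicate 2 above all 13.5 dpc samples (adjusted p = 0.271).

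The promoter of *Itga8* is shown because *Itga8* had the lowest fold change of the integrins and is compared below with that of its ligand gene *Npnt*. It is the RefSeq window from 250 bases before to 50 bases after the start, at chr2:12301895-12302194 on the minus strand (GRCm38.p6), and none of the 6 motifs searched was in it, so no base is in capitals.

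Itga8: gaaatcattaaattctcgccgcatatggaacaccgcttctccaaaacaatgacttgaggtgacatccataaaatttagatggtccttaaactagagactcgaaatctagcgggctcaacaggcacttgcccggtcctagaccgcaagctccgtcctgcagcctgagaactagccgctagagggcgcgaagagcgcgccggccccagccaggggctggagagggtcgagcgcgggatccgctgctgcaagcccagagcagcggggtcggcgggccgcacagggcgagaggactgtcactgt

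Of the collagen receptor subunits, *Itga11* fell and *Itga1* and *Itga2* were not called. *Itga11*, found on fibroblasts, measured 180, 178 and 205 normalised counts at 13.5 dpc and 65.0, 114 and 81.8 at 15.5 dpc. The samples did not overlap, and it was 2.14-fold lower (log2 -1.10 ± 0.20 SE, adjusted p = 0.0102 by edgeR). *Itga1*, found on smooth muscle and vessels, measured 74.7, 90.0 and 108 at 13.5 dpc and 96.9, 192 and 123 at 15.5 dpc. The stages overlapped for it, with a log2 fold change of 0.60 (95% confidence interval -0.03 to 1.23). *Itga2* had 12.5 to 62.4 normalised counts over the samples and the widest confidence interval of the listed genes, -1.61 to 0.82. *Itga9*, a receptor for tenascin C, measured 457, 382 and 454 at 13.5 dpc and 151, 278 and 222 at 15.5 dpc. It was 1.98-fold lower (log2 -0.98 ± 0.21 SE, adjusted p = 0.0171), without overlap. *Itga4*, a subunit of leukocyte and neural crest integrins, had 126 to 149 normalised counts at 13.5 dpc and 59.5 to 146 at 15.5 dpc and was not called (adjusted p = 0.284).

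Some of these calls depended on the samples used. Leaving out a single sample ended the call of *Itga3* and *Itga5* for any 13.5 dpc sample or 15.5 dpc replicate 3, with edgeR adjusted p values up to 0.0938 for *Itga3* and 0.0992 for *Itga5*. The log2 fold changes in these fits were -0.58 to -0.47 for *Itga3* and -0.54 to -0.47 for *Itga5*. The same omissions ended the call of *Itga6* (log2 0.60 to 0.76), with adjusted p values up to 0.104, as did scaling by library size alone (log2 0.48). *Itga9* lost its call without 13.5 dpc replicate 1 (-0.94) or 3 (-0.95) or 15.5 dpc replicate 3 (-0.995). *Itga11* lost it without 13.5 dpc replicate 3 (-1.03) or 15.5 dpc replicate 3 (-1.06), and *Itga7* without 13.5 dpc replicate 2 (0.67). The direction of each was the same in all settings. With 15.5 dpc replicate 2 left out, *Itga2* (-1.39), *Itga4* (-0.84) and *Itgav* (-0.51) were called lower. With replicate 1 left out instead, *Itga1* (0.80) was called higher.

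**Figure D3:**
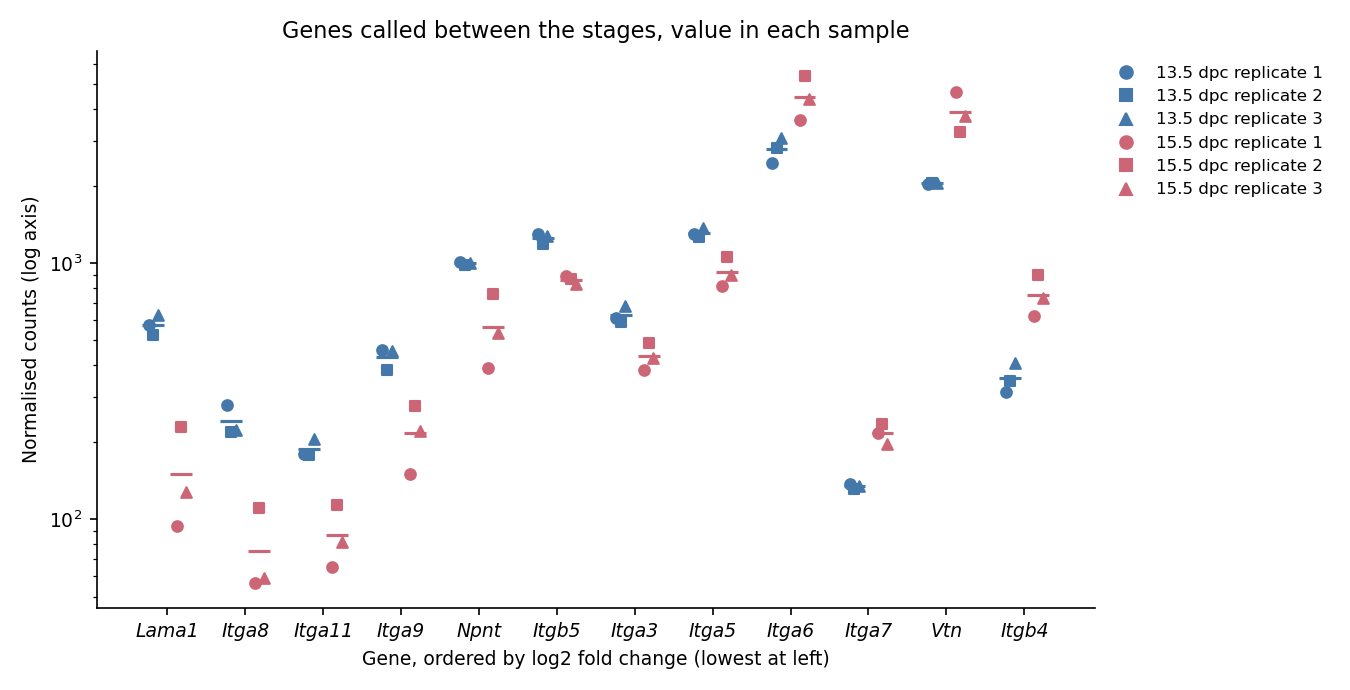
Normalised counts (y axis, log scale) of the 12 called genes in each sample, ordered by log2 fold change (x axis), with 13.5 dpc in blue, 15.5 dpc in red, a marker shape per replicate and bars at the stage means. The stages do not overlap for any of the 12, and the 15.5 dpc samples of *Lama1* spread from 94.1 to 230.1.

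Within each sample, *Itga5* and *Itga6* together took most of the summed alpha subunits per kb. *Itga5* was 30.3% ± 0.8 (SD, n = 3) at 13.5 dpc and 21.4% ± 1.2 at 15.5 dpc. *Itga6* was 31.0% ± 2.1 at 13.5 dpc and 49.7% ± 0.6 at 15.5 dpc. At 13.5 dpc these neighbours did not differ beyond their spread, and at 15.5 dpc every share of *Itga6* lay above every share of *Itga5*. *Itga3* went from 11.1% ± 0.3 to 7.71% ± 0.54 and *Itgav* from 7.99% ± 0.31 to 6.39% ± 0.63. The remaining 7 alpha subunits each had a mean share between 0.690% and 5.66%. *Itga8* went from 3.36% ± 0.60 to 1.02% ± 0.22, and *Itga7* from 3.39% ± 0.21 to 5.55% ± 0.93.

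Of the 6 integrin beta subunits, *Itgb4* rose, *Itgb5* fell and the other 4 were not called. *Itgb4* lies at chr11:115974709-116008412 (mm10, plus strand), and its product pairs with that of *Itga6* alone, in the hemidesmosomes that fix epithelia to the basement membrane. It measured 314, 348 and 407 normalised counts at 13.5 dpc and 621, 895 and 728 at 15.5 dpc. Every 15.5 dpc sample lay above every 13.5 dpc sample. It was 2.099-fold higher (log2 1.07 ± 0.16 SE, adjusted p = 0.00482 by edgeR), the highest log2 fold change of the listed genes. *Itgb5*, a partner of *Itgav* in binding vitronectin, measured 1298, 1185 and 1272 at 13.5 dpc and 889.9, 865 and 829 at 15.5 dpc. It was 1.45-fold lower (log2 -0.54 ± 0.09 SE, adjusted p = 0.00614), and its 15.5 dpc samples differed little from each other. In 7.26% of its 50-base windows, *Itgb5* shares sequence with another transcript, *Gm38317*. The calls of *Itgb4* and *Itgb5* held in all 16 alternative settings.

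*Itgb1*, the common partner of most listed alpha subunits, measured 6587, 6764 and 6574 at 13.5 dpc and 5627, 6596 and 6255 at 15.5 dpc. The log2 fold change was -0.11 (95% confidence interval -0.33 to 0.11, adjusted p = 0.415 by edgeR), and it was 77.7% ± 1.0 (SD, n = 3) of the summed beta subunits per kb at 13.5 dpc and 78.7% ± 1.0 at 15.5 dpc. *Itgb4* was 2.43% ± 0.32 of them at 13.5 dpc and 5.53% ± 0.63 at 15.5 dpc, and *Itgb5* 17.8% ± 0.9 and 13.4% ± 1.3. *Itgb1* thus had the highest level of the beta subunits in every sample. *Itgb8*, a partner of *Itgav* that activates latent TGF-beta, measured 74.7, 76.3 and 89.1 at 13.5 dpc and 40.1, 65.4 and 44.1 at 15.5 dpc. There was no overlap, and its adjusted p of 0.0612 missed the threshold in edgeR, while DESeq2 gave 0.0492. *Itgb8* was also called lower without 15.5 dpc replicate 2 (-0.91) and with scaling by library size alone (-0.87). *Itgb6*, an epithelial partner of *Itgav*, had 91.1 to 128 normalised counts at 13.5 dpc and 105 to 139 at 15.5 dpc. *Itgb3*, known from platelets and vessels, had 117 to 131 and 134 to 152, without overlap, and an adjusted p of 0.331.

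Of the 4 other integrin ligands, *Vtn* rose, *Npnt* fell and *Fn1* and *Tnc* were not called. *Vtn* encodes vitronectin, a plasma and matrix protein that liver secretes, and lies at chr11:78499091-78502324 (mm10, plus strand), with 2030 bases of exon the shortest listed gene. It measured 2040.1, 2053 and 2051 normalised counts at 13.5 dpc and 4642, 3254 and 3739 at 15.5 dpc. The 13.5 dpc samples were close together and all 15.5 dpc samples lay above them. It was 1.89-fold higher (log2 0.92 ± 0.14 SE, adjusted p = 0.00438 by edgeR), and its call held in all 16 alternative settings, with 0.77 without 15.5 dpc replicate 1. The summed level of 10 liver markers was 6264 to 7018 at 13.5 dpc and 11077, 5966 and 7462 in 15.5 dpc replicates 1, 2 and 3, and 0 of the 10 were called higher and 3 lower. Most of this sum was *Ttr*, with 9831, 5022 and 6660 in these replicates, and *Ttr* was not called. The 3 markers called lower were *Afp* (log2 -0.66), *Serpina1a* (-2.38) and *Fgb* (-1.24). *Vtn* had the same order of the 15.5 dpc samples as *Ttr*, which sets the order of the sum, but not as *Alb*, with 208, 167 and 65.5. The part of liver RNA in the rise of *Vtn* was not tested.

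*Npnt* encodes nephronectin, a basement membrane protein and the ligand of the integrin with *Itga8*, and lies at chr3:132881745-132950291 (mm10, minus strand). It measured 1006, 984 and 999 normalised counts at 13.5 dpc and 389, 759.8 and 534 at 15.5 dpc. All 15.5 dpc samples lay below the 13.5 dpc samples, and it was 1.77-fold lower (log2 -0.82 ± 0.22 SE, adjusted p = 0.0348 by edgeR). Ligand and receptor subunit thus both fell. The call of *Npnt* was lost without any of the 13.5 dpc samples or without 15.5 dpc replicate 3, with log2 fold changes of -0.84 to -0.79 and adjusted p values up to 0.124. *Fn1*, fibronectin, measured 1329, 1356 and 1591 at 13.5 dpc and 926, 2080.0 and 1242 at 15.5 dpc, so that 15.5 dpc replicate 2 was the highest of all samples and replicate 1 the lowest. *Tnc*, tenascin C, a matrix protein of developing mesenchyme, had 111 to 133 normalised counts at 13.5 dpc and 73.3 to 160.5 at 15.5 dpc. Leaving out 15.5 dpc replicate 2 gave a lower call for *Tnc* (-0.55).

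The promoters of both changed ligand genes are shown beside that of *Itga8*, as RefSeq windows of 300 bases (GRCm38.p6). For *Npnt* the window at chr3:132950242-132950541 on the minus strand is given, which holds the start of the gene model above. A second *Npnt* window, at chr3:132949765-132950064, held none of the 6 motifs and is not shown. Capitals mark 4 matches of the GC box (GGGCGG, or its reverse complement), of which the nearest begins at position -2 from the start. For *Vtn*, at chr11:78498870-78499169 on the plus strand, capitals mark matches of the TEAD motif GGAATG at positions -234 and 41, and of the TATA box TATAAA at -137 on the reverse strand and at -135, which overlap each other.

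Npnt: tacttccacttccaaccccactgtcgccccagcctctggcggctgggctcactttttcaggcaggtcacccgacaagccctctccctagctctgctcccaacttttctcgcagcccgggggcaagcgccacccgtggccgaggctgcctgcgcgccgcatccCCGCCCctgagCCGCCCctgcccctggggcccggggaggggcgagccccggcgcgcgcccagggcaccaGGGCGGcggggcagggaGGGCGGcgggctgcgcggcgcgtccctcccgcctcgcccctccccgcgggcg

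Vtn: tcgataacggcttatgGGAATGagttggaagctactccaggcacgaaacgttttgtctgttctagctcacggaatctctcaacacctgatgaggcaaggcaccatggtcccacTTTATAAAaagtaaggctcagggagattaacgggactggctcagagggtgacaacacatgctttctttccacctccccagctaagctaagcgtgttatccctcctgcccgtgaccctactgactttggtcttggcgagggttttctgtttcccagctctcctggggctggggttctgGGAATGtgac

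Of the listed genes, 25 had such windows that were read here, 32 in all, beside 32851 windows of the genome. Both strands were searched. The GC box was in 62.5% of the 32 windows and in 35.7% of all windows, and the median GC content was 61.0% and 52.7%. TEAD (GGAATG) matches were in 12.5% and 14.7%, the E-box CAGCTG in 18.8% and 16.3%, the TATA box in 9.38% and 13.6%, CCAAT in 18.8% and 37.4%, and the FOXA motif TGTTTAC in 0% and 3.65%. A match is a description of these letters, not a site of binding.

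Dystroglycan, encoded by *Dag1*, binds laminins, perlecan and agrin at the cell surface. *Dag1* measured 2146, 2232 and 2768 normalised counts at 13.5 dpc and 1609.5, 4141 and 2987 at 15.5 dpc. The stages overlapped, and it was not called (log2 0.29, 95% confidence interval -0.43 to 1.01, adjusted p = 0.503 by edgeR). The outcome depended on the replicates, with 0.58 and a call without 15.5 dpc replicate 1 and -0.04 and no call without replicate 2.

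To compare alternative chains within a sample, log2 ratios of counts per kb were taken for 8 pairs of listed genes. The stages were apart in all samples for 7 of the 8 pairs. Each of these gave p = 0.1 in a two-sided exact permutation test, which is the smallest p that 3 against 3 samples can give, and 0.114 after adjustment over the 8 pairs. This test therefore cannot reach 0.05 with these samples. *Lama1* over *Lama5* went from 0.399 to 0.0879, a log2 difference of -2.18. *Itga5* over *Itga6* went from 0.979 to 0.431, a log2 difference of -1.19. *Itgb4* over *Itgb1* went from 0.0310 to 0.0700, a log2 difference of 1.17. These 3 differences were several times the SD between replicates, which was at most 0.23 on the log2 scale. *Itgb6* over *Itgb5* differed by 0.77, with SDs of 0.26 and 0.18. The differences were smaller for *Nid2* over *Nid1* (-0.24), *Agrn* over *Hspg2* (-0.23) and *Lama4* over *Lama5* (0.16). For *Lamb2* over *Lamb1* (-0.11) the stages overlapped (p = 0.2, exact permutation test).

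**Figure D4:**
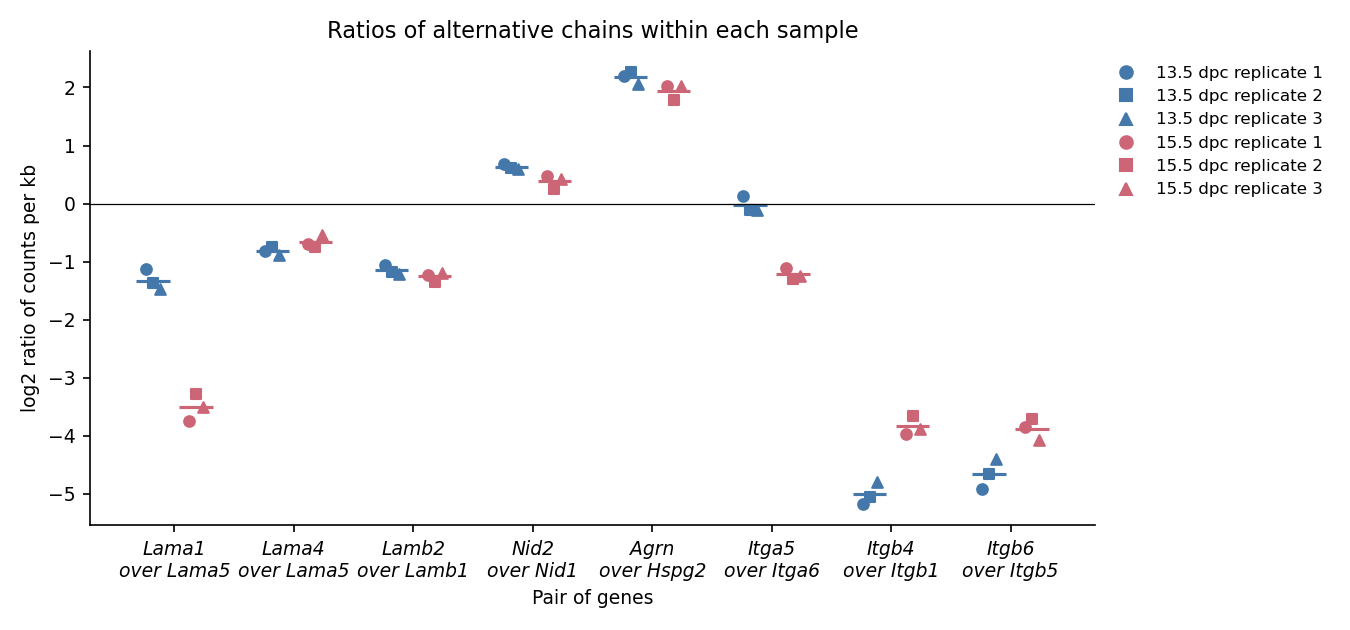
Log2 ratio of counts per kb of the first gene over the second (y axis) for 8 pairs (x axis), with a point per sample, 13.5 dpc in blue, 15.5 dpc in red and bars at the stage means. *Lama1* over *Lama5* lies at -1.48 or above at 13.5 dpc and at -3.27 or below at 15.5 dpc, and *Lamb2* over *Lamb1* is the only pair that overlaps.

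Exon length bears on these genes, which are long. Their median exon length was 7111 bases, against 3470.5 for all genes tested, and 33 of the 35 were longer than that median. Over all 15578 genes, the log2 difference of 15.5 dpc replicate 1 and replicate 2 had a Spearman correlation of -0.59 with exon length, and of -0.42 over the 35 genes. Relative to the 13.5 dpc mean, the median log2 level of the 35 genes was -0.69 in replicate 1, 0.13 in replicate 2 and -0.32 in replicate 3 at 15.5 dpc. Over all genes tested, the Spearman correlation of the same log2 level with exon length was -0.48, 0.01 and -0.35 in these replicates. Each 13.5 dpc sample was set against the mean of the other 2 instead. The correlation was then -0.24, -0.21 and 0.34 in replicates 1, 2 and 3, with medians of the 35 genes of -0.08, -0.09 and 0.19. With this reference the deviations of a gene balance out over the 3 samples. A difference in sign between these samples is thus built in, and the values are not on the footing of those at 15.5 dpc. The cause of these differences between libraries was not tested. Among the 2122 genes at least 7111 bases long, 19.3% were called, 5.14% higher and 14.2% lower, with a median log2 fold change of -0.26. Of the 18 listed genes of this length, 1 was called higher (*Itga6*) and 3 lower (*Lama1*, *Itga8* and *Itga9*), which is near this background, and the other 8 called genes were shorter.

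**Figure D5:**
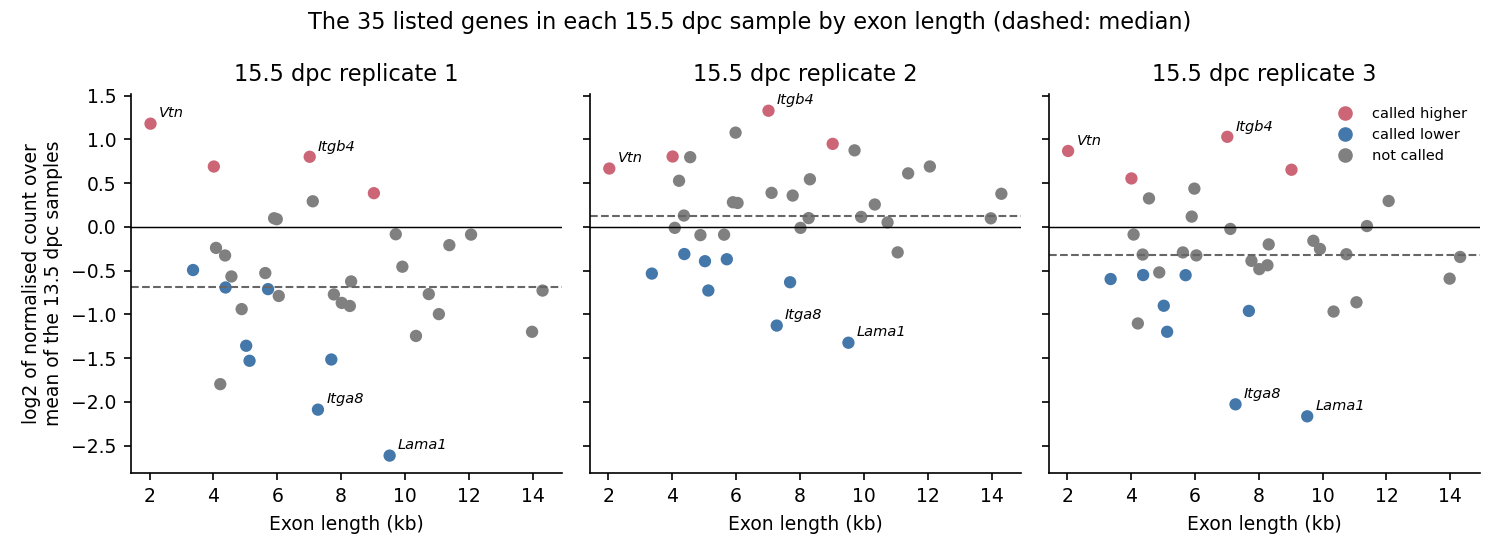
Log2 of the normalised count over the 13.5 dpc mean (y axis) against exon length in kb (x axis) for the 35 genes in each 15.5 dpc sample, coloured by call, with a dashed line at the median. The medians are -0.69, 0.13 and -0.32 in replicates 1, 2 and 3, and *Itga8* and *Lama1* lie lowest in each panel.

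Removal of the length trend of each library changed the calls in a single direction. All 8 genes that fell and all 4 that rose kept their calls, and *Lama4* (log2 0.64), *Lama5* (0.47) and *Itga1* (0.74) were called higher as well, so that 7 were higher and 8 lower. The background was then 18.1% higher and 14.7% lower, and the median log2 fold change of the 35 genes was -0.07. The common coefficient of variation between replicates fell from 0.15 to 0.108. Without 15.5 dpc replicate 2 it was 0.1, and 4 genes were called higher and 20 lower, against backgrounds of 24.7% and 23.3%. The same 12 genes were among those called in both of these settings.

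Of the other genes of the pathway, 21 were called. In the list of other basement membrane genes, 3 rose and 3 fell of 23 tested. The netrin genes *Ntn1* (log2 0.99) and *Ntn4* (0.53) and *Hmcn2* (1.99), a hemicentin, rose. *Frem1* (-1.83), a protein under embryonic epithelia, *Smoc2* (-0.95), a calcium-binding matrix protein, and *Pxdn* (-0.78), the peroxidase that crosslinks collagen IV, fell. The collagen IV genes *Col4a1* (0.29), *Col4a2* (0.33), *Col4a5* (-0.62) and *Col4a6* (-0.79) were not called. With the length trend removed, *Col4a1* (0.47) and *Col4a2* (0.51) were called higher and *Col4a6* (-0.59) lower.

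Of 7 other integrin genes tested, *Itgal*, a leukocyte subunit, rose (log2 1.06, from 66.3 ± 14.2 to 138 ± 16 normalised counts, SD, n = 3). The summed level of 10 leukocyte markers was 2345 to 2376 at 13.5 dpc and 1725 to 1989 at 15.5 dpc, with 0 called higher and 3 lower. Of 30 genes of integrin adhesions, 4 rose and 2 fell. The largest rises were *Itgb1bp1* (1.02), which binds the *Itgb1* tail, the tetraspanin *Cd9* (0.57) and the adaptor *Bcar1* (0.41). *Kank2* (-0.51) and the kinase *Src* (-0.39) fell, and talins, kindlins, *Ilk* and *Ptk2* were not called.

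Of 17 genes of the dystroglycan complex tested, *Dtnb* rose (0.74) and *Dtna* fell (-0.77), which both encode dystrobrevins. Of 18 other matrix ligands tested, 3 rose and 3 fell. *Ccn3* (1.26), *Tnxb* (1.00), a tenascin, and *Thbs2* (0.87), a thrombospondin, rose, and *Tgfbi* (-2.42), *Edil3* (-1.57) and *Spp1* (-0.50), which bind integrins, fell. *Tgfbi* measured 4202, 3479 and 3384 normalised counts at 13.5 dpc and 688, 752 and 626 at 15.5 dpc. The shares called were 26.1% of the basement membrane list, 14.3% of the integrin list, 20% of the adhesion list, 11.8% of the dystroglycan list and 33.3% of the ligand list, against the 22.3% of all genes.

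In whole organs, fewer cells of a type and less RNA per cell cannot be told apart, and the make-up of the samples differed between the stages. All 10 acinar markers rose, and their summed level was 75194 to 89377 at 13.5 dpc and 998247, 426321 and 614725 in 15.5 dpc replicates 1, 2 and 3. The listed genes had the opposite order of the 15.5 dpc replicates in the medians given above, and the part of the acinar RNA in this was not tested. Of 10 epithelial markers 5 rose and 0 fell, with sums of 33414 to 34630 and 44868 to 67307. Of 10 mesenchymal markers 2 rose and 3 fell, among them *Pdgfra* (log2 -1.33), with sums of 121818 to 137757 at 13.5 dpc and 90027, 133477 and 116421 in 15.5 dpc replicates 1, 2 and 3. Most of this sum was collagen genes with 6563 to 12136 bases of exon, *Col1a1*, *Col1a2* and *Col3a1*, which had the same order of the 15.5 dpc samples as the medians of the listed genes. *Vim*, with 2335 bases, had the opposite order, at 10533, 9200.3 and 9846, as did *Twist2*, with 1329 bases. The other short markers of this list had neither order. *Lum*, with 2075 bases, was highest in replicate 2 and lowest in replicate 3. *Dcn*, with 2084 bases, was highest in replicate 1 and lowest in replicate 3. *Twist1*, with 1616 bases, was highest in replicate 3 and lowest in replicate 2. Of the general pancreas markers, 4 rose and 4 fell of 10, and *Pdx1*, the defining factor of pancreatic epithelium, had 1194 to 1284 and 1265 to 1470.5 normalised counts.

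Smooth muscle and pericyte markers had 3 higher and 2 lower of 10, with sums of 4801 to 4888 and 4490.2 to 4898. Endothelial markers had 1 higher and 0 lower of 10, with sums of 9126 to 9796 and 9750 to 10430. Mesothelial markers had 2 higher and 2 lower of 9 tested, with sums of 4170.4 to 4230 and 4089 to 4957. The higher calls were *Krt19*, which is also in the epithelial list, and *Msln*, and the lower calls *Wt1* (log2 -0.75) and *Bnc1* (-1.05). *Krt19* had 794 to 861 at 13.5 dpc and 2355, 1195 and 1503.5 in 15.5 dpc replicates 1, 2 and 3. These sums thus rest in part on *Krt19*. Neural and glial markers had 2 higher and 3 lower of 10, with sums of 3125 to 3545 and 3319 to 4347, and platelet markers 0 higher and 1 lower of 6 tested, with sums of 291 to 323 and 219.9 to 385. No marker of any list was at 0 in all 6 samples. The part of these cell types in the calls of the listed genes was not tested.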

How the data were processed

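RNA of whole wt mouse pancreata was measured in 6 samples, 3 at 13.5 and 3 at 15.5 dpc. The authors isolated poly(A) RNA, prepared strand-specific libraries, aligned reads to mm10 with GSNAP and counted them on Ensembl genes with featureCounts 1.4.6. The submitters' processing notes also name bcl2fastq 1.8.4, and the strand setting of the counting is not given in the sources used here. The deposited values are raw counts per gene with the exon length of each gene, without normalisation.

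Symbols were matched by Ensembl identifier for 35449 of 37224 genes. The stages were compared in edgeR 4.0.16 (R 4.3.3) with filterByExpr, TMM factors and the quasi-likelihood test of stage without covariates, with Benjamini-Hochberg adjustment over the 15578 genes tested. Genes were called at an adjusted p at or below 0.05. For normalised counts, each library was brought to a common effective size, the geometric mean of the 6. Levels are compared between genes per kb of exon, and ratios with exact permutation tests. The samples are separate pools, and replicates of a stage differed by more than sampling noise. With 10546028 to 16389237 counts per sample, genes with fewer counts have wider intervals.

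All 35 genes, and of each of 5 pathway lists the up to 3 largest called rises and falls, are named. Other named genes of these lists were chosen after their values were seen. The genes and lists, with 11 marker lists, were chosen with earlier results of these data known. The alternatives were other scalings, DESeq2 1.42.0, other filters and thresholds, replicate blocks, removal of a lowess trend (span 0.5) with exon length, and leaving out each sample. Promoter windows came from RefSeq (GRCm38.p6). The steps were tested on simulated data. Figures were drawn with Python 3.11.15 and matplotlib 3.10.9.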

Additional observations from a re-analysis of the deposited data

How the results depend on the processing

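All 12 called genes kept their direction in the 16 settings, and 5 of them (*Lama1*, *Itga8*, *Itgb4*, *Itgb5* and *Vtn*) also kept their call. Over the 35 genes, 492 of 558 comparisons of a gene and a setting gave the same direction and call, 23 lost a call, 23 gained one and 20 changed sign. The number of listed genes called higher was 7 with the length trend removed, with or without the replicate block, and 2 to 7 when a sample was left out, the lowest lacking 13.5 dpc replicate 2 and the highest 15.5 dpc replicate 1. The number called lower was 3 at an adjusted p at or below 0.01 and 3 to 20 when a sample was left out, namely 4, 5 and 3 for 13.5 dpc replicates 1, 2 and 3 and 8, 20 and 3 for those of 15.5 dpc. Of the pathway lists, 36 genes were called with the length trend removed, 32 with the block as well, and 11 to 47 when a sample was left out, with 47 without 15.5 dpc replicate 2. Over all genes, 3467 were called, and 1235 to 7620 when a sample was left out. The median log2 fold change of the 35 genes was -0.51 without 15.5 dpc replicate 2 and -0.05 without replicate 1. The ratio pairs whose stages did not overlap numbered 7 or 8 in every setting, and *Lamb2* over *Lamb1* was at -0.25 without overlap with the length trend removed. The cause was not tested, and fewer samples also change the power of the fit.

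The log2 fold changes that changed sign were those of genes not called. When a sample was left out, *Lama2* ranged from -0.111 to 0.491, *Lama5* from -0.0811 to 0.345, *Nid1* from -0.523 to 0.0084, *Hspg2* from -0.508 to 0.0661, *Fn1* from -0.381 to 0.224, *Tnc* from -0.549 to 0.0498 and *Dag1* from -0.0363 to 0.583, with the ends of each range at the fits lacking 15.5 dpc replicate 1 or 2, except the 0.491 of *Lama2*, which lacks 15.5 dpc replicate 3. With the length trend removed, *Lamb1* was at 0.0986, *Hspg2* at 0.161, *Fn1* at 0.193 and *Tnc* at 0.0221, and with the block as well *Lamb1* was at 0.0985, *Hspg2* at 0.158 and *Fn1* at 0.168. With scaling by library size alone, which moved the median of all genes to -0.22, *Lama5* was at -0.0106 and *Itgb3* at -0.0357. *Fn1* was also at 0.0063 with DESeq2 size factors and 0.0049 with DESeq2.

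Same-numbered samples of the stages had correlations of deviations of 0.22, -0.22 and 0.04, so the numbers were not taken as pairs. With the replicate block, 4 listed genes were called higher and 8 lower, and 2676 of all genes were called against 3467. Low counts limit *Lama3* and *Itga2*, with 6 to 37 and 9 to 81 counts per sample.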
